A study of Homo sapiens with 18 samples.

Results

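The mitotic kinesins are the motor proteins that build the spindle, move chromosomes on it and divide the cell. The genes described here were taken as a list of 10 (KIF11, KIF14, KIF15, KIF18A, KIF18B, KIF20A, KIF23, KIF2C, KIF4A and KIFC1), by name and not by a threshold on their values, and all 10 had a row among the 20705 genes of the count table. Each was counted well in every library, with 432 to 13477 reads per gene and library, so none was lost to a filter on low counts.

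Poly-A RNA was sequenced from CHL1 and A375, established human melanoma cell lines, in 18 libraries that form 9 groups of 2 replicates. CHL1 cells (wild type for BRAF and NRAS, mutant for p53, grown in DMEM) had a DMSO control at 72 hours, palbociclib at 1 μM for 72 hours or 6 days (CDK4/6i, which blocks the kinases that start S phase), and GSK3326595 at 500 nM for 72 hours (PRMT5i, which blocks the arginine methyltransferase PRMT5). A375 cells (BRAF mutant, p53 wild type, grown in RPMI) had the same 4 groups and a second DMSO control at 6 days. The labels do not say that replicates were separate cultures, so every p-value here measures only the spread between these samples.

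Since CHL1 has a single control group, its 6-day cells were set against the control of 72 hours, and time and drug cannot be told apart there. The libraries held 20509245 to 37424081 counted reads in CHL1 and 16213475 to 36036772 in A375. The labels place the 6 A375 libraries of 72 hours in one library set and the other 12 libraries in another, so a difference between the lines at 72 hours, or between the times in A375, cannot be told apart from a difference between sets. The melanocyte transcription factor MITF was read at 69.0 to 177 CPM (counts scaled to the size of each library) in the group means, whereas the pigment genes TYR, PMEL and TYRP1 were at 3.43 CPM or below in all of them, and DCT stood at 36.4 to 134 CPM in CHL1 and at 1.33 CPM or below in A375. S100B stood at 13.1 to 90.9 CPM in CHL1 and at 3.79 to 92.3 CPM in A375, highest in both lines after 6 days of CDK4/6i. Of the markers of other cell types, 5 of 8 had a row, and KRT5 was at 0 reads in all CHL1 libraries. Most of their reads fell on PTPRC in CHL1 and, under CDK4/6i, on KRT14 in A375. In the A375 6-day control this held for KRT14 in replicate 2 (10.5 CPM) and not in replicate 1 (1.53 CPM). Their summed level was 8.37 to 8.46 CPM in the CHL1 control and 10.0 to 18.7 CPM in treated CHL1. In A375 it was 4.54 to 5.36 CPM in the 72-hour control, 6.58 to 11.8 CPM in treated cells of 72 hours, 4.57 to 14.0 CPM in the 6-day control and 11.7 to 14.6 CPM in 6-day CDK4/6i. The part of these markers in the results was not tested.

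In the CHL1 PRMT5i libraries and the A375 control libraries of 6 days, transcripts rich in GC were lower relative to transcripts poor in GC than in the other libraries. The mean log2 difference between the 10% of genes richest and the 10% poorest in GC, against the median of the cell line, was -2.32 and -1.88 in CHL1 PRMT5i and -2.18 and -1.09 in the A375 6-day control, against -0.33 to 0.56 in all other libraries. The members range in GC content from 36.0% (KIF18A) to 58.4% (KIF18B). Results that rest on these 4 libraries are therefore given below with counts or selected values under a correction for GC content. This holds for the members and the other gene lists, but not for the correlations between members.

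Kinesins convert the energy of ATP into movement along microtubules. Mitotic members are made in pulses: their mRNAs rise towards G2 and mitosis, when FOXM1, MYBL2 and the MuvB complex activate genes through promoter elements called CHR, often with nearby CCAAT boxes bound by NF-Y, and in resting cells the DREAM complex represses the same promoters. CDK4/6 inhibition keeps the retinoblastoma family unphosphorylated and holds cells in G1. In bulk RNA, fewer cells in G2 and mitosis and less of these mRNAs per cell cannot be told apart.

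The promoters of the members were read from RefSeq (build GRCh38.p14, 250 bases before to 50 after the start of each gene), where all 10 had an entry. CHR letters were taken as TTTGAA or TTTAAA or TTCGAA, and they and CCAAT were searched on both strands. From 60 bases before to 30 after the start, CHR letters were found in 10 of 10 members, against 7.43% of 35116 promoters in the table. They were in 3 of 6 promoters of kinesins outside the list with a role in mitosis. Among spindle and midzone partners they were in 12 of 16 promoters, and among kinesins with other roles in 1 of 19, that of KIF24. CCAAT was found within the 300 bases in 8 of 10 members, all but KIF15 and KIF2C, against 34.6% of all promoters. CHR letters near the start together with CCAAT were found in 8 of 10 members and in 2.92% of all promoters. The same held for 3 of 6 promoters of the other mitotic kinesins and for 11 of 16 of the partners. A match is a description of letters and not of binding. The 130 bases from 110 before to 20 after the start are printed for the members whose changes differed most from each other below and for KIF2C, which has no CCAAT in the window, with CHR letters and CCAAT, or their reverse complements, in capitals.
KIF20A, chr5:138179002-138179131, plus strand: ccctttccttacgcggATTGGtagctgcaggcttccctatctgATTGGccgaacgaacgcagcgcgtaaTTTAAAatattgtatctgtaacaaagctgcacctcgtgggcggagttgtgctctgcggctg
KIF11, chr10:92593020-92593149, plus strand: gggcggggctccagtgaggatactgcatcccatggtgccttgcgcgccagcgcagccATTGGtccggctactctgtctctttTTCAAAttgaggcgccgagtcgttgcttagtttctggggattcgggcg
KIF18A, chr11:28108137-28108266, minus strand: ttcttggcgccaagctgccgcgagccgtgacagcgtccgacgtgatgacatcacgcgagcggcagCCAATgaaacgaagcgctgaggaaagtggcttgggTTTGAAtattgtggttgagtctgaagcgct
KIF18B, chr17:44947754-44947883, minus strand: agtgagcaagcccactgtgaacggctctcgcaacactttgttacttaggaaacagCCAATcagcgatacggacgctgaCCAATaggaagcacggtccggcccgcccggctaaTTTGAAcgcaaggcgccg
KIF2C, chr1:44739727-44739856, plus strand: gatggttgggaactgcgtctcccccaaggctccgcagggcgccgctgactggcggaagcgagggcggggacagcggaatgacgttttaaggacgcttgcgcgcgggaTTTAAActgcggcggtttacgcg
In KIF20A, CHR letters lay at -41 to -36 from the start and CCAAT letters in reverse at -94 to -90 and -67 to -63. In KIF11 the CHR letters lay at -28 to -23 with CCAAT reversed at -53 to -49. In KIF18A and KIF18B the CHR letters lay at -10 to -5 and at 3 to 8. CHR and CCAAT letters did not overlap in any member, and CHR letters near the start were held by members that rose and by members that fell under PRMT5i.

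**Figure D1:**
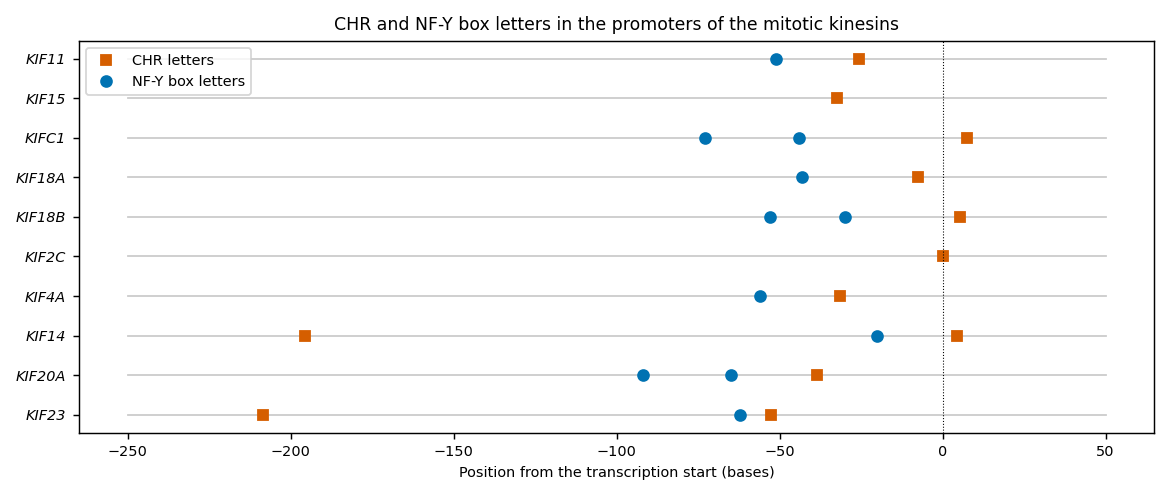
Each grey line is the promoter window of a member, with the x axis in bases from the transcription start; squares mark CHR letters and circles mark the letters of the NF-Y box on either strand. All 10 members have CHR letters within 60 bases before and 30 after the start, and 8 have an NF-Y box.

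In the 72-hour CHL1 control, levels per kilobase of transcript were highest for KIFC1 (32.4 CPM per kb), KIF4A (28.7) and KIF11 (26.9) and lowest for KIF15 (12.8) and KIF18A (14.4). In the 72-hour A375 control, KIF11 (46.5 CPM per kb) stood above KIF20A (34.9), KIF23 (33.3) and KIF18B (28.0), and KIF15 (15.0) and KIF18A (16.2) were again lowest. Differences between these controls were tested, here and below, with edgeR's quasi-likelihood test and Benjamini-Hochberg adjustment over all 20705 genes at 0.05. KIF11, KIF20A, KIF23 and KIF2C were higher in A375, 4 of 10 members, by 0.79 ± 0.19, 0.62 ± 0.19, 0.86 ± 0.16 and 0.51 ± 0.19 on the log2 scale (± SE here and below), where 29.6% of all genes were called higher. Without CHL1 control replicate 2 or without A375 control replicate 2 of 72 hours, 2 members passed. KIFC1 and KIF4A had the only negative differences, -0.24 and -0.15, and neither passed.

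**Figure D2:**
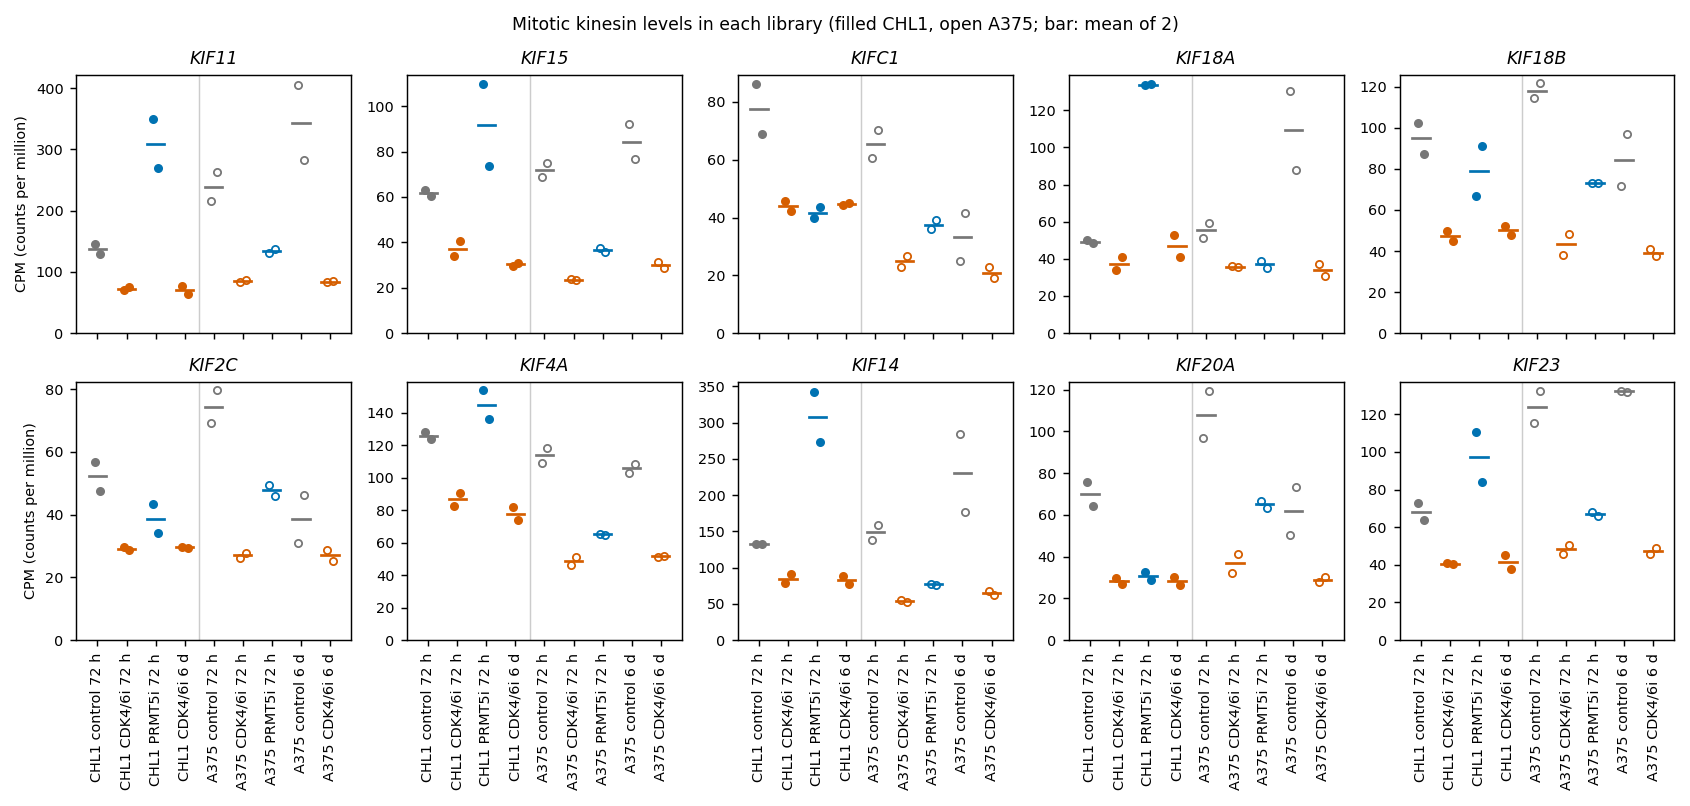
Levels of the 10 members in CPM (linear axes from 0) in each of the 18 libraries, with filled points for CHL1, open points for A375, grey for control, orange for CDK4/6i and blue for PRMT5i, and bars for the mean of 2 replicates. In both lines all CDK4/6i libraries of KIF11, KIF20A and KIF23 lie below their control libraries, and KIF18A under PRMT5i stands at 134 CPM in both CHL1 libraries.

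CDK4/6i at 72 hours lowered the members in CHL1. Of the 10, 7 fell and 3 did not pass the test (KIF15, KIF18A and KIF4A), where 2.72% of all genes were called lower. The median log2 fold change of the members was -0.79, and that of all genes was 0.00. The largest fall was that of KIF20A, the motor that carries the chromosomal passenger complex with Aurora B to the midzone. KIF20A was at 76.0 and 64.1 CPM in the controls and at 29.7 and 27.1 CPM under CDK4/6i, so the groups did not overlap. Its log2 fold change was -1.31 ± 0.17 (adjusted p = 0.00246, edgeR quasi-likelihood test), that is 2.47-fold lower.

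Among the motors that push spindle poles apart, KIF11, which slides antiparallel microtubules, was at 146 and 129.8 CPM in the CHL1 controls and at 70.6 and 74.7 CPM under CDK4/6i. It fell by 0.93 on the log2 scale (SE 0.18, adjusted p = 0.0146). KIF15, which can stand in for KIF11, was at 63.0 and 60.2 CPM in the controls and at 34.0 and 40.5 CPM under CDK4/6i, a log2 difference of -0.73 with an adjusted p of 0.0534. KIFC1, a motor of the opposite direction that focuses poles and clusters extra centrosomes, fell by 0.82 (SE 0.16, adjusted p = 0.0173).

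Of the kinesins that set microtubule length, KIF18B fell by 1.01 (adjusted p = 0.0126) and KIF2C, the depolymerase that frees wrongly attached kinetochores, by 0.84 (adjusted p = 0.0199). KIF18A, which damps the movements of chromosomes at the metaphase plate, moved least, from 50.3 and 48.3 CPM to 34.1 and 40.8 CPM, a log2 difference of -0.40 ± 0.17 (adjusted p = 0.22). Of the motors of the midzone and of cytokinesis, KIF23, the kinesin of centralspindlin, fell by 0.75 (adjusted p = 0.0357) and KIF14, which binds citron kinase and PRC1, by 0.65 (adjusted p = 0.0473). The chromokinesin KIF4A had a log2 difference of -0.54 ± 0.15 (adjusted p = 0.0614). The count of 7 rested on all 4 libraries compared: 1 member passed without CHL1 control replicate 1, without CHL1 control replicate 2 or without CHL1 CDK4/6i replicate 1 of 72 hours, and 0 without CHL1 CDK4/6i replicate 2 of 72 hours.

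**Figure D3:**
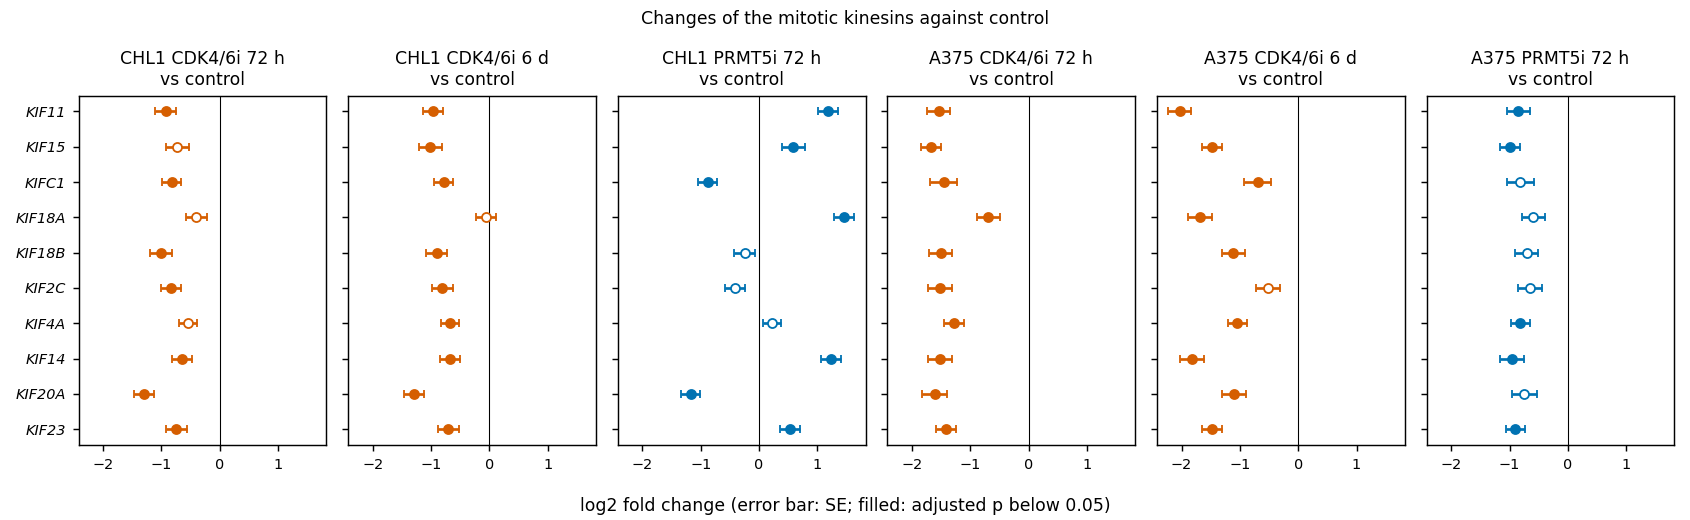
Log2 fold change of each member (x axis) in the 6 comparisons with control, with SE bars and filled points where the adjusted p is below 0.05; orange is CDK4/6i and blue is PRMT5i. All points of the CDK4/6i panels lie below 0, the points of A375 PRMT5i lie between -0.99 and -0.59, and the points of CHL1 PRMT5i lie on both sides of 0.

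After 6 days of CDK4/6i, 9 members were lower than the 72-hour control in CHL1, where 7.80% of all genes were called lower, with a median of -0.79 beside 0.03 for all genes. KIF20A again had the largest fall, to 29.997 and 26.6 CPM (log2 fold change -1.29 ± 0.17, adjusted p = 0.000946). KIF15 fell by 1.01 (SE 0.20, adjusted p = 0.00588) to 29.7 and 30.8 CPM, and KIF11 by 0.97 (adjusted p = 0.00443). KIF18A was the exception, with 52.6 and 40.8 CPM overlapping its controls and a log2 difference of -0.06, for which the interval of 2 SE ran from -0.41 to 0.28. Without CHL1 control replicate 1 the count was 2, and without CHL1 control replicate 2 it was 4.

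The direct test of 6 days against 72 hours of CDK4/6i in CHL1 called no member in either direction by edgeR, at log2 differences of -0.29 (KIF15) to 0.34 (KIF18A). No member was below an unadjusted p of 0.05 and DESeq2 called 0. The test called 0.0145% of all genes higher and 0% lower.

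In A375, CDK4/6i at 72 hours lowered all 10 members, where 7.11% of all genes were called lower. The median log2 fold change was -1.51, and that of all genes was 0.00. KIF15 fell most, from 68.9 and 75.1 CPM to 23.9 and 23.2 CPM (log2 fold change -1.67 ± 0.17, adjusted p = 2.88e-05, 3.18-fold). KIF20A followed, from 96.7 and 119 CPM to 32.4 and 41.1 CPM (-1.61 ± 0.21, adjusted p = 0.00015). KIF18A had the smallest fall, from 51.4 and 59.6 CPM to 36.0 and 35.7 CPM (-0.69 ± 0.20, adjusted p = 0.0318). The other 7 members fell by 1.28 (KIF4A) to 1.54 (KIF11), and for each of them both treated libraries were below both controls. The share of all genes separated in this way was not computed.

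In A375 at 6 days, 9 of 10 members were lower than the 6-day control, where 21.3% of all genes were called lower, and the median was -1.30 beside 0.10 for all genes. KIF11 fell most, from 405 and 282 CPM to 83.4 and 84.5 CPM (-2.03 ± 0.20, adjusted p = 5.27e-06, 4.09-fold). KIF14 fell from 284 and 177 CPM to 67.8 and 62.6 CPM (-1.82 ± 0.21, adjusted p = 1.68e-05). KIF2C was the member that did not pass, at 31.0 and 46.2 CPM in the controls and 28.7 and 25.4 CPM under CDK4/6i (-0.52 ± 0.21, adjusted p = 0.0505).

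The order of the members in this comparison moved with GC content, at a Spearman correlation of 0.81 over the 10 members, beside 0.59 over 13675 genes. The points share the same 4 libraries, and the control replicates of 6 days differ from each other (KIF11 at 405 and 282 CPM). Genes within 1 percentage point of the GC content of KIF11 and KIF14 had median log2 fold changes of -0.59 and -0.76, beside -2.03 and -1.82. Near KIF18B the median was 0.62, beside -1.11. With the GC correction all 10 members fell, where 21.4% of genes were called lower. KIF18B then fell most (-1.67 ± 0.12) and KIF18A least (-0.73 ± 0.12), and KIF20A fell by 1.27.

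The test of the 6-day change against the 72-hour change in A375 called no member by edgeR, where 0.174% of genes were called higher and 0.908% lower. At an unadjusted p below 0.05 there were 2 members higher and 1 lower, and DESeq2 called 1 each way. The result depended on A375 control replicate 2 of 6 days. Without it that group holds a single library, and members were called in both directions. The share of all genes called in that fit is not given here. KIF18A had a difference of -0.997 (SE 0.28, adjusted p = 0.088) and KIF2C one of 0.996 (SE 0.29, adjusted p = 0.10). With the GC correction no member was called either (0.395% of genes were called higher and 1.18% lower), 2 were higher and 0 lower at an unadjusted p below 0.05, and KIF18A had a difference of -0.31 and KIF2C one of 0.76.

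The A375 controls themselves differed between 6 days and 72 hours. KIF18A, KIF14 and KIF11 were higher at 6 days, by 0.93, 0.58 and 0.48 on the log2 scale, and KIFC1, KIF2C, KIF20A and KIF18B were lower, at -1.01, -0.98, -0.84 and -0.53, where 24.0% of all genes were called higher and 23.8% lower. Without A375 control replicate 1 of 72 hours or replicate 1 of 6 days 1 member was called higher, and without replicate 2 of 72 hours 2 members were called lower. With the GC correction no member was higher (16.8% of genes were), KIF18B having the only positive value (0.19, adjusted p = 0.206), and KIF15, KIF20A, KIF23 and KIF2C were lower (25.3% of genes were). Under CDK4/6i KIF11 was at 83.7 and 86.9 CPM at 72 hours and 83.4 and 84.5 CPM at 6 days.

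Under PRMT5i in CHL1 the members moved in both directions, as genes of the whole table did. At 72 hours 5 rose, 2 fell and 3 did not pass the test, where 26.4% of all genes were called higher and 27.6% lower, so the count of falls was no higher than the share over all genes. The summed level of the members was 914 and 827 CPM in the controls and 1382 and 1168 CPM under PRMT5i. This sum was not corrected for GC content, and KIF11 and KIF14 were its largest parts under PRMT5i (means of 309 and 308 CPM). KIF18A rose most, from 50.3 and 48.3 CPM to 134 CPM in both libraries (1.46 ± 0.17, adjusted p = 0.000107). KIF14 rose from 132 and 133 CPM to 342 and 273 CPM (1.23 ± 0.17, adjusted p = 0.000166) and KIF11 from 146 and 129.8 CPM to 349 and 269 CPM (1.18 ± 0.18, adjusted p = 0.000244). KIF15 and KIF23 rose by 0.59 and 0.53 (adjusted p = 0.0212 and 0.024). For these 5 both treated libraries were above both controls, although the share of all genes separated in this way was not computed.

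KIF20A and KIFC1 went the other way. KIF20A fell from 76.0 and 64.1 CPM to 32.4 and 28.9 CPM (-1.17 ± 0.17, adjusted p = 0.000205), close to its level under CDK4/6i in the same line. KIFC1 fell from 86.1 and 68.9 CPM to 39.8 and 43.5 CPM (-0.88 ± 0.16, adjusted p = 0.000842). KIF2C (-0.41), KIF18B (-0.25) and KIF4A (0.22) did not pass. Without CHL1 control replicate 1, CHL1 control replicate 2 or CHL1 PRMT5i replicate 1, 3 members rose.

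The direction of the members followed their GC content. Over the 10 members the Spearman correlation of the log2 fold change with GC content was -0.89, and over 13675 genes it was -0.82, in the same libraries. The 5 members that rose are the 5 poorest in GC, at 36.0% to 42.3%. Genes within 1 percentage point of the GC content of KIF18A had a median log2 fold change of 1.23, beside 1.46 for KIF18A itself, and those near KIF11 one of 0.88, beside 1.18. Near KIFC1 the median was -1.13, beside -0.88, near KIF18B it was -1.16, beside -0.25, and near KIF20A it was -0.11, beside -1.17.

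With the GC correction 2 members rose and 1 fell, where 17.0% of genes were called higher and 17.5% lower, shares close to those of the members. KIF20A still fell (-1.05 ± 0.14, adjusted p = 0.000534), KIF18B rose (0.85 ± 0.12, adjusted p = 0.000749) and KIF18A rose by 0.30 ± 0.11 (adjusted p = 0.0487). KIF11 and KIF14 had values of 0.34 and 0.26 and did not pass (adjusted p = 0.0796 and 0.15), and the other 5 lay between -0.11 (KIF15) and 0.18 (KIFC1). KIF20A and KIF18A were the members called in the same direction with and without the correction. The part of GC content in these changes was not tested further.

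**Figure D4:**
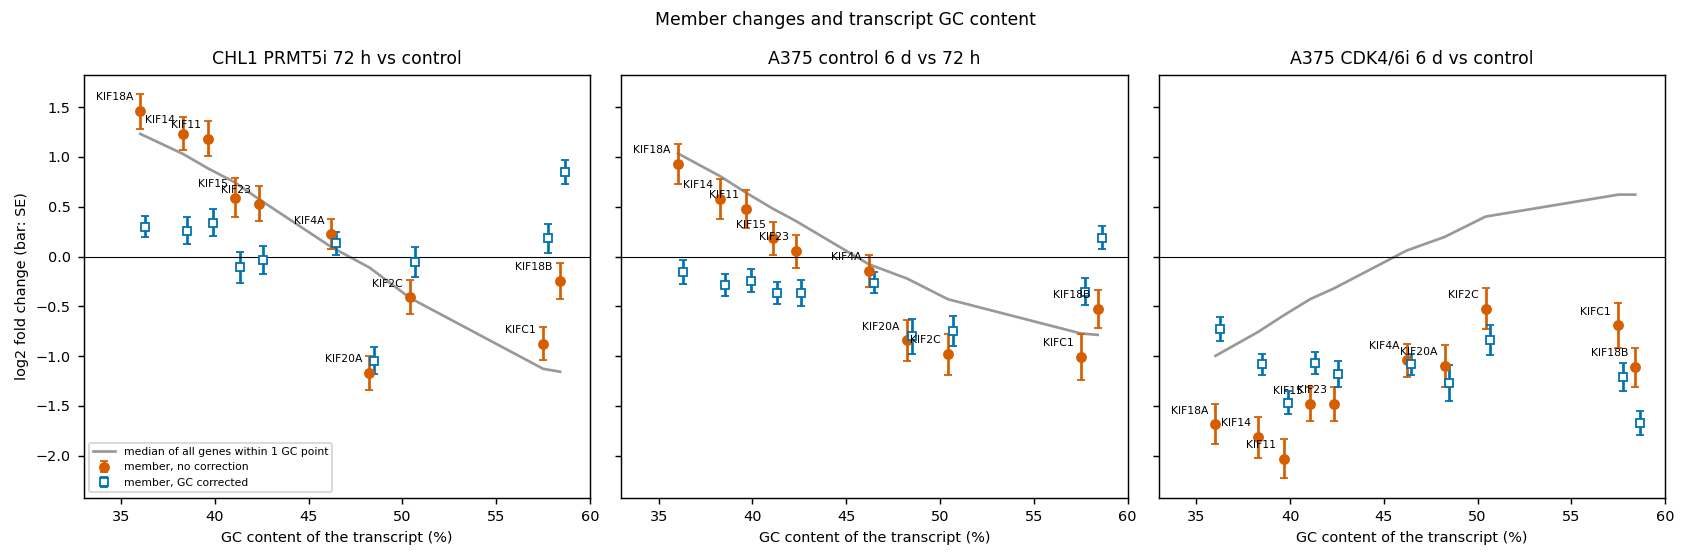
Log2 fold change (y axis, SE bars) against the GC content of the longest transcript (x axis, %) for the 10 members, in 3 comparisons that use the libraries with a GC trend. Orange points are uncorrected, blue squares are GC corrected and the grey line is the median of all genes within 1 percentage point; in CHL1 PRMT5i most members lie near the grey line, KIF20A lies below it (-1.17 beside -0.11) and KIF18B above it (-0.25 beside -1.16).

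In A375, PRMT5i at 72 hours lowered 5 members, KIF15, KIF14, KIF23, KIF11 and KIF4A, where 1.74% of all genes were called lower and 0.874% higher. All 10 members had negative log2 differences, from -0.99 to -0.59, with a median of -0.82 beside 0.00 for all genes. KIF15 fell from 68.9 and 75.1 CPM to 37.4 and 35.6 CPM (-0.99 ± 0.17, adjusted p = 0.0074). KIF23 fell from 115 and 133 CPM to 67.9 and 65.9 CPM (-0.90 ± 0.17, adjusted p = 0.0112). KIF20A was at 66.8 and 63.2 CPM beside 96.7 and 119 CPM in the controls, a log2 difference of -0.74 ± 0.21 that did not pass (adjusted p = 0.0727).

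The count of 5 depended on the libraries in the fit. Among the fits that follow, the share of all genes called is given only for that with the replicate block. All 10 members passed without A375 control replicate 1 or replicate 2 of 6 days, in a fit of the control and PRMT5i libraries of 72 hours alone or with the GC correction, and 0 passed without A375 control replicate 1 or 2 or PRMT5i replicate 1 or 2 of 72 hours. With the replicate number as a block, in the 72-hour libraries alone, 10 members fell, where 15.4% of all genes were called lower and 14.1% higher, and those libraries gave 10 without the block too. For every member both PRMT5i libraries were below both 72-hour controls, although the share of all genes separated in this way was not computed.

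The direct comparison of the drugs at 72 hours had 8 members higher under PRMT5i than under CDK4/6i in CHL1, where 28.4% of all genes were called higher. KIF11 differed most (2.11 ± 0.18, adjusted p = 1.27e-05), followed by KIF14 (1.88) and KIF18A (1.86). For KIF20A and KIFC1 the drugs did not differ beyond the spread, at 0.13 (2 SE interval -0.20 to 0.47) and -0.05 (-0.38 to 0.27), although with the GC correction KIFC1 was higher under PRMT5i, by 1.09. With it 9 members were higher, all but KIF20A, where 24.4% of genes were, and KIF18B differed most (1.96) ahead of KIF11 (1.19), KIF14 (0.85) and KIF18A (0.66). In A375, 5 members were higher under PRMT5i (KIF11, KIF15, KIF18B, KIF20A and KIF2C), by 0.68 to 0.87, where 2.37% of all genes were called higher. KIF18A differed by 0.10, with an interval from -0.30 to 0.50.

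The A375 count of 5 also changed with the libraries used, and the share of all genes is given here only for the fit with the replicate block. It was 0 without either replicate of A375 CDK4/6i or of A375 PRMT5i at 72 hours, 2 and 1 without A375 control replicate 1 and 2 of 72 hours, 9 without either 6-day control replicate, 9 in the 72-hour libraries alone with the replicate number as a block (where 18.4% of all genes were called higher) or without it, and 3 without either replicate of 6-day CDK4/6i.

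The changes were then compared between the lines in a fit of all 18 libraries. For CDK4/6i at 72 hours no member was called by edgeR, where 0.241% of all genes were called lower in A375, 6 members were lower at an unadjusted p below 0.05 and DESeq2 called 1. All 10 differences (A375 minus CHL1) were negative, from -0.89 (KIF15) to -0.23 (KIF18A), and 1 member was called without A375 control replicate 1 of 6 days. For CDK4/6i at 6 days the log2 fold changes of 4 members were lower in A375 than in CHL1, those of KIF18A (-1.61 ± 0.27, adjusted p = 0.000719), KIF14 (-1.13), KIF11 (-1.05) and KIF23 (-0.76), where 12.4% of all genes were called lower. This comparison sets A375 against its 6-day control and CHL1 against its 72-hour control, and the A375 control of 6 days was itself higher than that of 72 hours for KIF18A, KIF14 and KIF11 (above). With the 72-hour control in both lines no member was called by edgeR, 7 were lower at an unadjusted p below 0.05 (6.95% of all genes were called lower), and the differences were -0.64 for KIF18A, -0.50 for KIF14, -0.53 for KIF11 and -0.67 for KIF23. With the GC correction 4 members were lower, where 12.8% of genes were, KIF18B (-0.65), KIF18A (-0.54), KIF11 (-0.51) and KIF4A (-0.47), and KIF14 (-0.38) and KIF23 (-0.55) did not pass. Without CHL1 control replicate 2 the count was 2, and without A375 control replicate 2 of 6 days 1 member was called in the other direction.

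For PRMT5i 6 members differed between the lines, all lower in A375, where 18.8% of all genes were called lower. KIF14 (-2.16 ± 0.28, adjusted p = 0.000109), KIF18A (-2.02 ± 0.27) and KIF11 (-1.997 ± 0.27) differed most, and KIF15, KIF23 and KIF4A by -1.55, -1.40 and -1.01. In the GC-corrected fit 8 members were lower, where 13.7% of genes were, and the differences of those 6 were smaller, for instance -1.11 for KIF14. KIF20A did not differ with or without the correction (0.46 and 0.29, adjusted p = 0.187 and 0.409).

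Of the kinesins outside the list with a role in mitosis, 4 of 6 had a row. CENPE, which carries chromosomes to the plate, fell in CHL1 at 72 hours of CDK4/6i (-0.64, adjusted p = 0.0453) and in A375 at both times (-1.05 and -2.15), and rose under PRMT5i in CHL1 (1.59). KIF2A, a microtubule depolymerase like KIF2C, fell in A375 at 6 days (-0.92) and rose under PRMT5i in CHL1 (1.03). KIF20B, a close relative of KIF20A, did not pass in CHL1 under CDK4/6i (-0.34 and -0.20) and rose by 1.47 under PRMT5i, whereas KIF20A fell in all 3. In A375 both fell under CDK4/6i, KIF20B by 1.10 and 1.99, and KIF20B fell under PRMT5i by 0.86. KIF22, a chromokinesin, fell under PRMT5i in CHL1 (-1.10) and under CDK4/6i at 72 hours in A375 (-0.86). After GC correction the values in CHL1 under PRMT5i were 0.39 for CENPE and -0.36 for KIF22, which passed, and 0.20 for KIF20B and -0.039 for KIF2A, which did not. In A375 at 6 days they were -1.14 for CENPE, -0.89 for KIF20B and -0.48 for KIF22, which passed, and -0.07 for KIF2A, which did not.

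Of the kinesins of transport and other roles, 26 of 27 had a row. Under CDK4/6i in CHL1 2 rose at 72 hours (2.27% of all genes were called higher) and 5 at 6 days (8.83% of all genes). By edgeR 0 fell at either time, where 2.72% and 7.80% of all genes were called lower. At an unadjusted p below 0.05, 5 and 2 were lower. In A375 at 72 hours 3 rose (6.22% of all genes) and 2 fell (7.11% of all genes). At 6 days 10 rose (21.8% of all genes) and 6 fell (21.3% of all genes). KIF1A, a neuronal vesicle motor, rose in CHL1 by 1.35 and 1.56 at the earlier and the later time, KIF12 by 1.08 and 1.53 and KIFC2 by 0.98 at 6 days. KIF12 also had the largest rise among those called in A375, at 1.91 and 2.28, from a mean of 0.27 and 0.22 CPM in the controls. KIF21B fell most in A375 at 72 hours (-2.06, adjusted p = 2.48e-05) and KIF5B, the ubiquitous heavy chain of conventional kinesin, at 6 days (-1.24). Under PRMT5i in CHL1 5 rose, KIF27 most (1.45), and 9 fell, KIFC2 most (-1.56), beside 26.4% and 27.6% of all genes. Corrected for GC content, 4 rose and 2 fell there (17.0% and 17.5% of genes), with KIF27 (0.29) and KIFC2 (-0.22) not passing, and 8 rose and 8 fell in A375 at 6 days (20.9% and 21.4%). KIF24 fell in A375 under PRMT5i (-0.95), the only one of the 26 to pass there, beside 1.74% of all genes lower and 0.874% higher. With the replicate number as a block 2 rose and 9 fell there (14.1% and 15.4% of all genes), and 9 rose and 7 fell under CDK4/6i at 72 hours in A375 (20.6% and 21.7%).

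**Figure D5:**
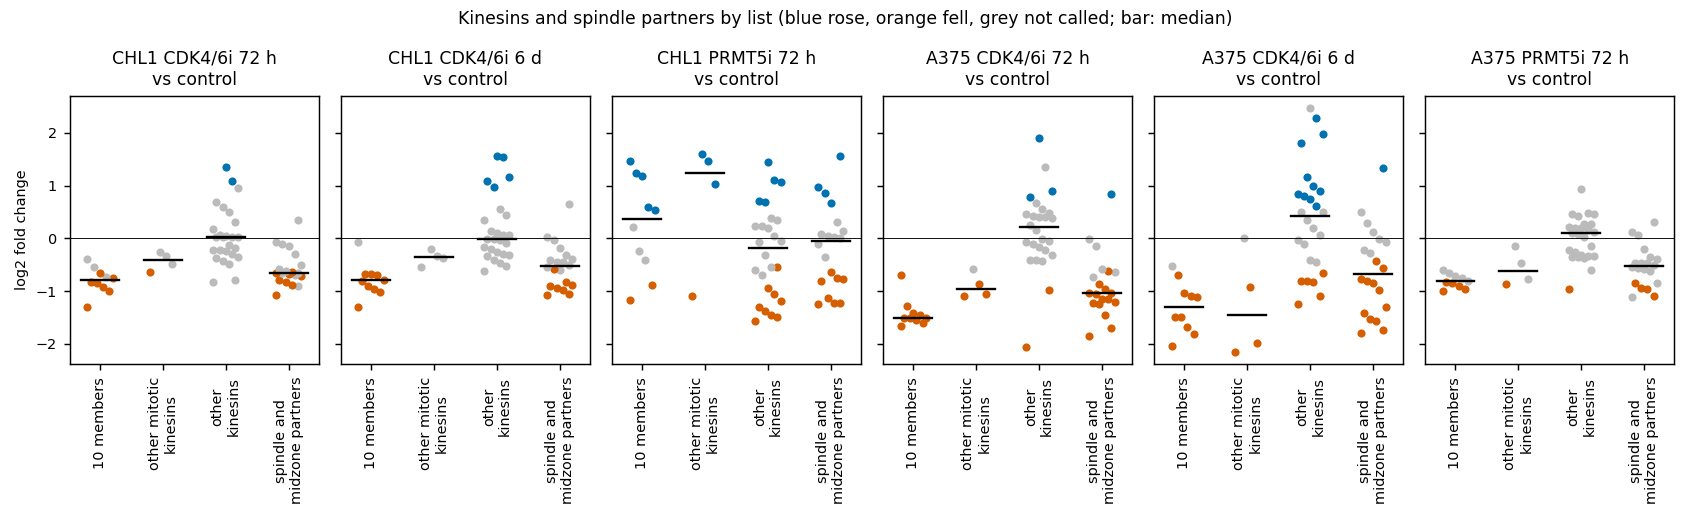
Log2 fold change (y axis) of each gene in 4 lists of kinesins and partners for the 6 comparisons with control, in blue where it rose, in orange where it fell and in grey where it did not pass, with bars for medians. Under CDK4/6i the median of the members is -0.79 in CHL1 at both times and -1.51 and -1.30 in A375, and that of the kinesins of other roles lies between -0.01 and 0.43.

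The partners of these motors on the spindle and at the midzone (20 genes) fell in part. Under CDK4/6i 8 fell in CHL1 at each time (2.72% and 7.80% of all genes), and 14 and 12 in A375 (7.11% and 21.3%). TPX2, which docks KIF15 and KIF11 on the spindle, fell in these 4 comparisons, by 0.72 and 0.82 in CHL1 and by 1.14 and 0.81 in A375. RACGAP1, the partner of KIF23 in centralspindlin, fell in CHL1 at 72 hours (-0.67) and in A375 (-0.87 and -0.43), and citron kinase (CIT), the partner of KIF14, in CHL1 (-0.63) and A375 (-1.23) at 72 hours. PRC1, the crosslinker of midzone microtubules that recruits KIF4A, fell in A375 (-1.45 and -1.42) and at 6 days in CHL1 (-0.97), although it was counted at only 1.64 to 5.34 CPM in the group means.

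Under PRMT5i 4 partners rose and 8 fell in CHL1, where 26.4% of all genes rose and 27.6% fell. In the GC-corrected fit 4 rose and 2 fell (17.0% and 17.5% of genes). In A375 0 rose by edgeR (also at an unadjusted p below 0.05) and 4 fell (1.74% of all genes), and with the replicate number as a block 1 rose and 16 fell (14.1% and 15.4%). In CHL1 ECT2, the exchange factor that centralspindlin activates, had the largest rise (1.55) and Aurora B (AURKB), the cargo of KIF20A, the largest fall (-1.24), or 0.56 and -0.35 with the GC correction, which also passed. Among the partners called in A375, CIT had the largest fall (-1.10), and NUSAP1 fell by 0.96. NUSAP1 also had the largest fall among partners under CDK4/6i in A375 at 72 hours (-1.85) and in CHL1 at 6 days (-1.08), and PLK1 that in CHL1 at 72 hours (-1.07), where the smallest was that of CIT. The smallest falls called were those of AURKA in CHL1 at 6 days (-0.57) and of ANLN in A375 under PRMT5i (-0.84). ECT2 had the largest fall in A375 at 6 days (-1.80, or -1.06 with the GC correction), where MAPRE3 was the one partner that rose (1.34), as at 72 hours (0.83). With the correction 2 partners rose and 16 fell at 6 days (20.9% and 21.4% of genes), and RACGAP1 (-0.27) did not pass.

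Among the regulators of G2/M promoters (15 of 16 with a row), 4 and 5 fell under CDK4/6i in CHL1 (2.72% and 7.80% of all genes) and 8 at each time in A375 (7.11% and 21.3%). MYBL2, which joins MuvB to activate these genes, fell from 226 and 189 CPM to 95.1 and 90.6 CPM in CHL1 at 72 hours (-1.16 ± 0.20, adjusted p = 0.0101) and by 2.05 in A375. FOXM1 fell by 0.98 and 1.46 in the same comparisons, where the smallest falls called were those of LIN52 (-0.61) and RBBP4 (-0.57). At 6 days MYBL2 fell by 1.40 and E2F5 by 0.68 in CHL1. Under PRMT5i in CHL1 both fell, MYBL2 by 1.36 and FOXM1 by 0.95, while LIN9, LIN54 and LIN52 of the MuvB core rose by 1.38, 1.16 and 0.87, RBBP4 of the same core had a difference of 0.07 that did not pass, and NFYB rose most (1.53). In all 7 regulators rose and 3 fell there, beside 26.4% and 27.6% of all genes. After GC correction 4 rose and 2 fell (17.0% and 17.5% of genes), LIN9 (0.70) and LIN52 (0.34) among those that rose and RBBP4 (-0.60) among those that fell, and LIN54 (0.26), NFYB (0.36), MYBL2 (-0.16) and FOXM1 (-0.029) did not pass. In A375 under PRMT5i neither FOXM1 (-0.85) nor MYBL2 (-0.83) passed, and RBL1 (-0.82) and LIN9 (-0.72) did. With the replicate number as a block both passed there, and 1 regulator rose and 10 fell (14.1% and 15.4% of all genes). At 6 days of CDK4/6i in A375 NFYB had the largest fall (-1.91, or -0.93 with the GC correction) and E2F4 was the one that rose (0.64), which with the correction did not pass (0.085).

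The members shared one profile over the 9 groups to different degrees. The Pearson correlation of a member with the mean of the other 9 was highest for KIF4A (0.99) and KIF23 (0.99) and lowest for KIFC1 (0.63), KIF20A (0.70) and KIF18A (0.73), and the pair least alike was KIFC1 and KIF18A (0.11). The 5 genes outside the list most like the mean of the members, among 15648 genes, were CDKN3 (0.99), NUSAP1 (0.99), MELK (0.99), TOP2A (0.99) and KNTC1 (0.99). These are correlations over 9 group means centred within each line, which share controls and library sets, and they carry no test. CHL1 PRMT5i and the later A375 control, whose libraries have the GC trend, are among the 9 groups, and no GC correction was applied here. The GC content is 57.5% for KIFC1, 48.2% for KIF20A and 36.0% for KIF18A. The part of GC content in these correlations was not tested.

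Some members share exonic bases with a gene on the opposite strand in GENCODE release 44 lifted to GRCh37, and the strandedness of the counts is not stated. KIFC1 (chr6:33359600-33377673) shares 424 exonic bases, 14.0% of its own, with RPL12P1, a pseudogene of a ribosomal protein. KIF20A (chr5:137514408-137523412) shares 132 with BRD8 and 74 with CDC23, and KIF23, KIF2C and KIF4A share 231, 175 and 77 with other genes. KIF4A also has a near-identical copy, KIF4B, whose expression was not analysed here, so reads that fit both could be missing from the count of KIF4A.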

How the data were processed

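The authors made the libraries with a poly-A kit, aligned the paired reads with HISAT2 to GRCh37 and counted them on Ensembl genes with HTSeq (versions 2.0.4 and 0.11.2 in the submitters' processing notes), removed genes with low expression with edgeR and deposited counts for 20705 gene symbols in 18 libraries. The submitters' name for the deposited values calls them edgeR-normalised reads. They are whole numbers with unequal totals and were used as raw counts. The members and lists were chosen with earlier results of these data known.

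Libraries were grouped by line, treatment and time from their labels. With no replicate number in their labels, the A375 libraries of 6 days were numbered by their order in the series. Counts were tested in R 4.3.3 with edgeR 4.0.16 (TMM, glmQLFit, glmQLFTest, prior count 0.125), in one fit per line (8 CHL1 and 10 A375 libraries) and one of all 18 libraries for the differences between lines. Genes were called at a Benjamini-Hochberg adjusted p below 0.05 over all genes. SE is the log2 fold change divided by the square root of F. CPM used TMM factors of all 18 libraries. No source used here names molecular identifiers, so reads may repeat molecules.

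GC content came from the longest GENCODE v44lift37 transcript of the 15208 symbols that matched directly and 1148 matched by a RefSeq synonym. The correction was a loess curve (span 0.4) per library as an offset, on 13675 such genes whose mean reached 1 CPM. Genes named are all members, the genes with the highest and lowest log2 fold change past the threshold in each list, FOXM1, MYBL2, CENPE, KIF20B, KIF22, TPX2, PRC1, RACGAP1 and CIT, and the 5 genes most like the members. LIN9, LIN52, LIN54 and RBBP4 in CHL1 and NUSAP1 in A375, both under PRMT5i, were added after their values were seen.

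The alternatives were scaling by median-of-ratios, DESeq2 1.42.0, an adjusted p below 0.01, genes reaching 1 CPM in 2 libraries, fits of either the 2 groups compared or all 18 libraries, the GC correction, a replicate block alone and with it, the 72-hour A375 control for 6 days, leaving out each library, and, chosen after seeing the data, genes with a GC value uncorrected, fits without the libraries with a GC trend, the 72-hour A375 control in the line difference at 6 days, and the GC correction and block for the other lists. Deviations of same-numbered A375 samples of 72 hours correlated at 0.22 to 0.48 in all 3 pairs of groups. Blocked counts are therefore given for A375 PRMT5i, for the members, the kinesins of other roles, the partners and the regulators. For CDK4/6i at 72 hours in A375 they are given only for the kinesins of other roles. With the block 21.7% of all genes were called lower in that comparison. The scripts were tested on simulated data. Expression of KIF2B, KIF4B, KIF19 and LIN37 was not analysed here, although their promoters were searched where RefSeq had an entry. Expression of MLANA, SOX10, CD3E, CD68 and PECAM1 among the markers was not analysed either.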

Additional observations from a re-analysis of the deposited data

Results flagged for a closer look

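The changes under the same drug differed between A375 and CHL1 by the test of the difference itself (edgeR quasi-likelihood test, all 18 libraries). The values are log2 differences, A375 minus CHL1. After 6 days of CDK4/6i they were -1.05 for KIF11, -1.61 for KIF18A, -1.13 for KIF14 and -0.76 for KIF23. Under PRMT5i at 72 hours they were -1.997 for KIF11, -1.55 for KIF15, -2.02 for KIF18A, -1.01 for KIF4A, -2.16 for KIF14 and -1.40 for KIF23. These comparisons use the libraries with a GC trend (the A375 6-day control and CHL1 PRMT5i), and the line, the medium and, at 72 hours, the library set cannot be told apart. With the GC correction the differences of these members under PRMT5i were smaller, and at 6 days KIF14 and KIF23 did not pass (above). At 6 days A375 was set against a 6-day control and CHL1 against a 72-hour one. With the 72-hour control in both lines the differences were -0.53 for KIF11, -0.64 for KIF18A, -0.50 for KIF14 and -0.67 for KIF23, and none passed (adjusted p from 0.0581 for KIF23 to 0.237 for KIF14).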

How the results depend on the processing

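The directions of all called members held under every alternative run except the GC correction, alone or with the replicate block. With it, alone and with the block, CHL1 PRMT5i gave KIFC1 0.18 and 0.18, KIF15 -0.11 and -0.12, KIF18B 0.85 and 0.85 and KIF23 -0.037 and -0.041, and PRMT5i against CDK4/6i in CHL1 gave KIFC1 1.09 and 1.08. The correction alone gave, for the A375 control at 6 days against 72 hours, KIF11 -0.24, KIF15 -0.37, KIF18A -0.15, KIF18B 0.19, KIF14 -0.29 and KIF23 -0.36, and for the line difference under PRMT5i KIFC1 -1.06.

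Members called under alternatives were as follows, and the shares of all genes in those fits are given above only for some of them. CHL1 CDK4/6i at 72 hours: 1 fell at 0.01. CHL1 PRMT5i: 1 fell and 2 rose with the GC correction, 1 and 3 with the replicate block and GC correction, 3 rose at 0.01. A375 PRMT5i: 10 fell in place of 5 with the compared groups only, the GC correction, the replicate block, both, or without the libraries with a GC trend, 8 with DESeq2 and 1 at 0.01. A375 PRMT5i above CDK4/6i: 9 with the GC correction, the replicate block, both, or without the libraries with a GC trend, and 0 at 0.01. A375 6-day against 72-hour change: 1 fell and 1 rose with DESeq2. A375 controls: 0 higher at 6 days with the GC correction, 1 at 0.01. Line difference for CDK4/6i at 6 days: 0 with the A375 control of 72 hours. At 72 hours: 1 with DESeq2, 3 with the GC correction. A375 above CHL1 controls: 7 with the GC correction, and 1 below. In this comparison the main fit called 6138 of 20705 genes higher and 6067 lower.

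Leaving out each library in turn, members that fell ranged from 0 to 9 in CHL1 CDK4/6i at 72 hours, 2 to 9 at 6 days and 0 to 10 in A375 PRMT5i, and members that rose from 3 to 5 in CHL1 PRMT5i. They ranged from 0 to 9 for A375 PRMT5i above CDK4/6i, 0 to 3 lower and 0 to 4 higher for the A375 times, 2 to 4 lower and 1 to 3 higher for the A375 controls, 0 to 1 lower for the line difference at 72 hours, 2 to 4 lower and 0 to 1 higher at 6 days, and 2 to 4 for the controls of the lines. The shares of all genes called with a library left out are not given here, and the causes were not tested. Equal replicate numbers do not establish pairs in CHL1, where deviations of same-numbered samples correlated at -0.34 to 0.44. The replicate block changed no count of members other than those above by over 1.5 times. With 2 replicates a group, a change that misses the threshold is not shown to be absent.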
